A study of Mus musculus with 3 samples.

Results

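The POU genes encode transcription factors that hold a POU-specific domain and a homeodomain, and 7 of them were followed here in developing cortical neurons of the somatostatin (SST) lineage. They are the 4 class III genes Pou3f1, Pou3f2, Pou3f3, and Pou3f4, the octamer-binding factors Pou2f1 and Pou2f2, and Pou6f1. The 7 were chosen by name among the 31053 genes of the count matrices, and all 7 were detected in each library. Both POU domains contact DNA, and in the neural tube class III factors often act beside SOX proteins on shared enhancers. In the cortex, Pou3f2 (Brn2) and Pou3f3 (Brn1) are best known from progenitors and upper-layer excitatory neurons, where they overlap in function. Pou3f1 (Oct6, SCIP) is known from cortical projection neurons and from myelinating Schwann cells of the nerves.

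GFP+ cells were sorted from the neocortex of mice given as Sst-Cre; RCEloxP in the labels, in which Cre under the control of the Sst locus switches on a GFP reporter for good, so that a cell stays labelled even if it later loses Sst. All groups carried both alleles, the labels give no treatment, and 6 animals were pooled at embryonic day 16.5 (E16.5), 3 at postnatal day 1 (P1), and 3 at P5. With 1 library per stage, stage and library cannot be told apart and no test between samples is possible. The intervals given are exact 95% intervals for counting error only, the limit given with a count of 0 is 3 cells of the total and concerns cells with a UMI, and cells of 1 library are not replicates. The libraries held 4478, 4440, and 3406 cells at E16.5, P1, and P5, of which 3952, 2501, and 2980 passed the limits of over 700 genes and under 10% mitochondrial UMIs (unique molecular identifiers, each a counted RNA molecule). P1 kept 56.3% of its cells against 88.3% and 87.5%, with medians of 5577, 3293, and 3935.5 UMIs per kept cell. An Sst UMI was found in 74.8%, 73.4%, and 73.3% of the kept cells, and a UMI of Lhx6, the transcription factor of the medial ganglionic eminence lineage, in 84.0%, 78.6%, and 76.0%. The sorted cells thus carried the defining markers of their label in most but not all cells. Libraries shared between 1 and 6 cell barcodes in pairs.

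Cells with at least 1 UMI of Nos1, neuronal nitric oxide synthase and the marker of long-range projection (LRP) neurons of the SST lineage, were set against Lhx6 cells without a Nos1 UMI, which hold the SST interneurons. At E16.5, P1, and P5, respectively, 67, 434, and 547 Nos1 cells were set against 3269, 1606, and 1874 Lhx6 cells without Nos1. Median depths were 7863, 3704.5, and 3073 UMIs in the Nos1 cells and 5808, 3811, and 4752.5 UMIs in the Lhx6 cells without Nos1. Chodl, another LRP marker, was found in 22.4%, 51.6%, and 60.0% of the Nos1 cells and in 2.26%, 3.49%, and 2.88% of the Lhx6 cells without Nos1. Among the Nos1 cells, 14, 17, and 3 also held UMIs of at least 2 of 7 markers of excitatory neurons (Neurod6, Neurod2, Neurod1, Slc17a7, Slc17a6, Tbr1, and Eomes). That amounts to 14 of 67 cells at E16.5, which bears on several values below. Levels are given as CPM, the UMIs of a gene for each 1000000 UMIs summed over a group of cells. They are not corrected for transcript length and were counted near the 3′ end, so that they compare groups of cells for 1 gene and do not rank genes.

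The family resemblance that groups these genes is shown by the coding bases around the third helix of the homeodomain, the helix that lies in the major groove of DNA. The stretch of 57 bases is given 5′ to 3′ in the coding direction, from GENCODE transcripts on GRCm38, with the 21-base core of the helix in capitals. It lies in a single coding exon in each gene.
Pou3f1, chr4:124658832-124658888, plus strand: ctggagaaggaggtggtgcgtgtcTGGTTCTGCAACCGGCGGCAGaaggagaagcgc
Pou3f2, chr4:22486893-22486949, minus strand: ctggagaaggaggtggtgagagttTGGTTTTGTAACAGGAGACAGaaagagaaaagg
Pou3f3, chr1:42698469-42698525, plus strand: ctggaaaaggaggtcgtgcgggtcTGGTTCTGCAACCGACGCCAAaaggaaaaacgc
Pou3f4, chrX:110815413-110815469, plus strand: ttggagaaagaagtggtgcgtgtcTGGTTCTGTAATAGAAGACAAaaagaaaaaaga
Pou2f1, chr1:165894977-165895033, minus strand: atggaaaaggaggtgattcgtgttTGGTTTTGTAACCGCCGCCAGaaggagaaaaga
Pou2f2, chr7:25096959-25097015, minus strand: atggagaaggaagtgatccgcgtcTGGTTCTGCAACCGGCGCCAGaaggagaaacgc
Pou6f1, chr15:100578306-100578362, minus strand: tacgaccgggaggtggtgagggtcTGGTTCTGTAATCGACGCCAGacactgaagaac
All 7 genes had the same base at 26 of the 57 positions and the 4 class III genes at 36. Pou3f2 and Pou3f3, of which the first was higher and the second lower in Nos1 cells at P1 and P5, matched at 41 positions. The class III genes each consist of a single exon, Pou3f2 on the minus strand of chromosome 4 (chr4:22482780-22488366) and Pou3f3 on the plus strand of chromosome 1 (chr1:42695768-42703176). The longest identical run between the transcripts of Pou3f2 and Pou3f3 had 23 bases, and the longest between any 2 of the 7 genes had 43. Pou2f1, Pou2f2, Pou6f1, and Pou3f1 each overlap a gene on the other strand, so that their counts are less certain if strand was not used.

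The start regions of both genes are shown because their RNA levels divided the 2 groups of cells after birth. Each runs from 250 bases before to 50 bases after the RefSeq start on GRCm38.p6, with CCAAT in the printed direction in capitals.
Pou3f2, chr4:22488317-22488616, minus strand: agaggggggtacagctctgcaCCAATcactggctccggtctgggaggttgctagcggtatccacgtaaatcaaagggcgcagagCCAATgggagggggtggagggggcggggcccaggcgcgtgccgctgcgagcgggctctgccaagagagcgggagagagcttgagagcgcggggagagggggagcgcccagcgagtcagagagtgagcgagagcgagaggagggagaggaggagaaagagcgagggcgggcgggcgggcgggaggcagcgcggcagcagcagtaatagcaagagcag
Pou3f3, chr1:42695518-42695817, plus strand: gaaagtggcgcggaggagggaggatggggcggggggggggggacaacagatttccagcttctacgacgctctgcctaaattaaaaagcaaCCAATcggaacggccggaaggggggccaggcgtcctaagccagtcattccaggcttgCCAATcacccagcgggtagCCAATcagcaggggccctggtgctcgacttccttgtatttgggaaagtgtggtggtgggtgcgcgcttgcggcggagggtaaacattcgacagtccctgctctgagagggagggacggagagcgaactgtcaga
Pou3f2 held 2 copies of CCAAT and Pou3f3 held 3, and 37.4% of all 32851 RefSeq start regions of this length held CCAAT (or ATTGG, the other strand) at least once. The octamer ATGCAAAT (or ATTTGCAT), which POU factors are known to bind, was not in any of the 8 start regions found for 6 of the 7 members, and it was in 1.74% of all start regions. TATAAA (or TTTATA) was in neither of the printed regions and in 13.6% of all. These are matches of letters within a short window and say nothing of binding.

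Pou3f2 was the member with the clearest difference between the groups. Nos1 cells held it at 146 CPM (117 to 181) in the E16.5 library, 335 CPM (310 to 361) in P1, and 282 CPM (259 to 306) in P5. In Lhx6 cells without Nos1, it stood at 9.33 CPM (8.07 to 10.7), 51.2 CPM (46.4 to 56.4), and 11.6 CPM (9.47 to 14.0). The intervals of the 2 groups did not overlap in any library. The difference on the log2(CPM + 1) scale was 3.84, 2.68, and 4.49, and the plain ratio was 15.7-fold (12.1 to 20.3), 6.54-fold (5.77 to 7.41), and 24.4-fold (19.8 to 30.3). The smallest ratio was at P1, where the level in Lhx6 cells without Nos1 was highest. With cells limited to over 1000 genes and under 5% mitochondrial UMIs, 222 Nos1 cells and 357 Lhx6 cells without Nos1 were left at P1, at 461 and 141 CPM, and the log2 difference was 1.70. Among all genes with at least 10 UMIs in the 2 groups, 6.45%, 4.33%, and 4.22% were higher in Nos1 cells by over 2-fold at E16.5, P1, and P5, and 8.69%, 3.72%, and 7.08% were lower. Of the 7 members, 2 were past that limit on the higher side at E16.5 (Pou3f1 and Pou3f2), and 3 at P1 and at P5 (with Pou3f4), while only Pou3f3 at P5 was past it on the lower side. The median difference of the 7 members was 0.23, 0.73, and 0.51, against -0.05, -0.03, and -0.07 over all genes. These counts and medians rest partly on less certain members. The E16.5 median is the value of Pou3f3, and both this value and Pou3f1 rested on cells with excitatory markers, as given below. With a pseudocount of 10 CPM, Pou3f4 was 0.50 at P1 and 0.83 at P5, short of 2-fold.

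**Figure D1:**
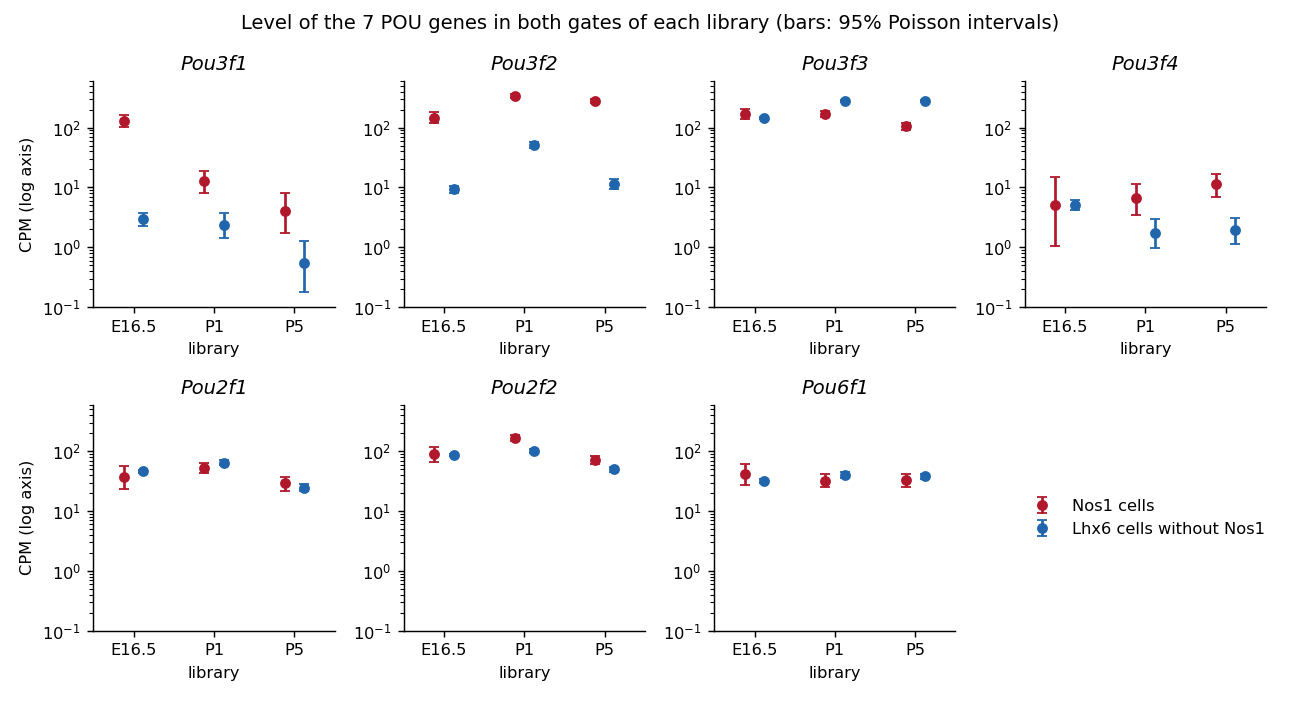
Level of each POU gene in CPM on a log axis for the 3 libraries, in Nos1 cells (red) and Lhx6 cells without Nos1 (blue). Points are sums over the cells of a group and bars are exact 95% Poisson intervals. Pou3f2 is higher in Nos1 cells in all 3 libraries, and Pou3f3 is lower in Nos1 cells at P1 and P5.

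Single cells gave the same order for Pou3f2. A UMI of the gene was found in 34.3%, 58.8%, and 53.6% of Nos1 cells across the 3 libraries and in 3.18%, 13.3%, and 4.06% of Lhx6 cells without Nos1. With each cell thinned to 2000 UMIs, the shares were 18.5%, 47.2%, and 40.6% against 1.71%, 10.2%, and 2.03%, after 2, 78, and 133 Nos1 cells and 169, 291, and 201 Lhx6 cells were left out as too shallow. Among clusters low in the gene, a cluster of 281 cells at E16.5 with a median of 7745 UMIs held no Pou3f2 UMI, which allows a share of up to 1.07%. The lowest cluster at P1 had a share of 2.33% at a median of 7989 UMIs, and the lowest at P5 held 0 of 122 cells at a median of 3735 UMIs, which allows up to 2.46%. Deeper clusters of P5 held 1 of 463 cells (0.216%) and 1 of 383 cells (0.261%) at medians of 5062 and 5114 UMIs. The shares in Lhx6 cells without Nos1 were above those of these clusters in each library, at P5 with 4.06% (3.21 to 5.05). These clusters were picked for low Pou3f2 and consist mostly of Lhx6 cells without Nos1. Such cells were 244 of the 281 at E16.5, 312 of 387 in the lowest cluster at P1, and 91 of the 122 at P5. The order was thus fixed in advance and gives no measure of background. Cells with 5 or more Pou3f2 UMIs numbered 8, 35, and 8 among Nos1 cells and 9, 14, and 0 among Lhx6 cells without Nos1, with at most 12, 12, and 8 UMIs in 1 Nos1 cell.

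The value at E16.5 rests in part on cells with excitatory markers. Of the 87 Pou3f2 UMIs in the 67 Nos1 cells, 59 came from the 14 cells with at least 2 excitatory markers, whose level was 320 CPM (244 to 413). In the remaining 53 Nos1 cells, the level was 68.3 CPM (45.4 to 98.8), and the log2 difference was then 2.75 in place of 3.84. At P1 and P5 the level in Nos1 cells without these markers was 348 CPM and 282 CPM, against 335 CPM and 282 CPM with them. The excitatory-marker cells thus made up a large part of the Pou3f2 signal of Nos1 cells at E16.5 and little of it after birth.

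Pou3f2 also differed by how many Nos1 UMIs a cell held. At P1, its level was 151 CPM (122 to 184) in cells with 1 Nos1 UMI, 407 CPM (335 to 489) with 2 to 4, and 428 CPM (389 to 470) with 5 or more. At P5, the level was 47.9 CPM (26.8 to 79.0) with 1 Nos1 UMI, 366 CPM (286 to 463) with 2 to 4, and 321 CPM (292 to 351) with 5 or more. The cells with a single Nos1 UMI were thus lower in both postnatal libraries and their intervals did not overlap with those of cells with more. However, 324 of the 434 Nos1 cells of P1 were in LRP-like cluster 3, described below. At P5, 402 and 71 of the 547 were in LRP-like clusters 3 and 10. The remaining Nos1 cells were in other clusters, and their part in this order was not tested. At E16.5, the 3 classes held 38, 21, and 8 cells, stood at 158, 168, and 81.6 CPM, and had overlapping intervals. Within Nos1 cells, those with Dach1 and no Lypd1 and those with Lypd1 and no Dach1, markers of different kinds of LRP neurons, had like levels of Pou3f2. They stood at 393 CPM (98 cells) and 427 CPM (55 cells) at P1, and at 305 CPM (27 cells) and 313 CPM (221 cells) at P5. The plain ratio of the 2 kinds was 0.919 (0.729 to 1.16) at P1 and 0.975 (0.645 to 1.43) at P5.

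**Figure D2:**
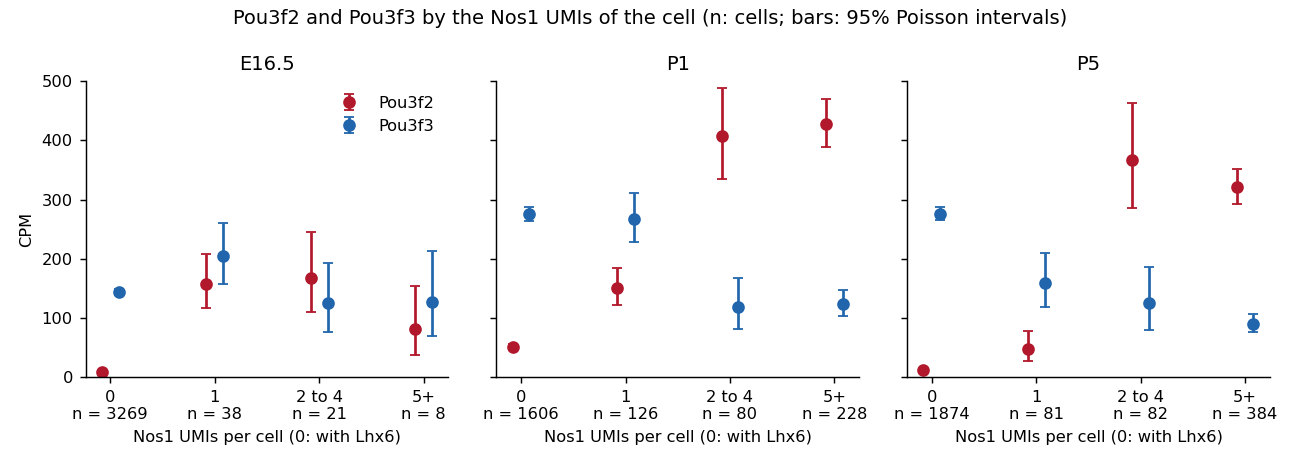
Level of Pou3f2 (red) and Pou3f3 (blue) in CPM for Lhx6 cells with no Nos1 UMI and for cells with 1, 2 to 4, and 5 or more Nos1 UMIs, by library. Bars are exact 95% Poisson intervals and n is the number of cells. At P1 and P5 cells with a single Nos1 UMI lie between the cells without Nos1 and those with more for Pou3f2.

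Pou3f3 went the other way after birth. Nos1 cells held 168 CPM (137 to 205) in the E16.5 library, 170 CPM (152 to 189) in P1, and 105 CPM (91.1 to 120) in P5. In Lhx6 cells without Nos1, it was 143 CPM (138 to 149), 276 CPM (264 to 287), and 276 CPM (265 to 287). The intervals overlapped at E16.5 and were apart at P1 and P5, with Nos1 cells the lower group. The log2 difference was 0.23, -0.69, and -1.39, and the plain ratio 1.17 (0.952 to 1.43), 0.617 (0.549 to 0.693), and 0.380 (0.328 to 0.439). Without the Nos1 cells that held excitatory markers, the difference at E16.5 was -0.59, on the same side as after birth. However, of the 67 Nos1 cells of E16.5, 31 were in LRP-like cluster 12, described below, and 16 in Cort-led cluster 3. Pou3f3 stood at 168 CPM (134 to 208) in cluster 12, not below the Lhx6 cells without Nos1, and at 78.6 CPM in cluster 3. The part of cluster 3 in the value of -0.59 was not tested. A Pou3f3 UMI was found in 49.3%, 37.1%, and 26.0% of Nos1 cells and in 47.9%, 52.2%, and 52.1% of Lhx6 cells without Nos1, and in 23.1%, 22.8%, and 14.7% against 22.9%, 35.6%, and 35.0% at 2000 UMIs per cell. The share of cells with the gene was thus lower in Nos1 cells at P1 and P5, also at equal depth. In the lowest cluster for this gene, led by Tac1 at P5, 2.46% of 122 cells held a UMI at a median of 3735 UMIs.

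Pou3f3 was uneven among the interneurons. Lhx6 cells without Nos1 that held Reln, the extracellular protein reelin, and no Tac1 stood at 189, 363, and 375 CPM at E16.5, P1, and P5. Those that held Tac1, the precursor of substance P, and no Reln stood at 43.0, 53.9, and 16.8 CPM. Reln cells were higher in each library, by 2.11, 2.73, and 4.40 on the log2(CPM + 1) scale, with plain ratios of 4.39 (3.16 to 6.29), 6.74 (4.35 to 11.1), and 22.4 (11.8 to 49.0). The last rests on 9 Pou3f3 UMIs in 109 Tac1 cells. Pantr1, a long noncoding RNA transcribed away from Pou3f3 from a start 926 bases from that of Pou3f3, had the same order. It stood at 207, 513, and 654 CPM in the Reln cells and at 54.9, 35.0, and 44.7 CPM in the Tac1 cells. Pou2f1, Pou2f2, and Pou6f1 differed between the 2 kinds of cells by at most 1.07 on the log2(CPM + 1) scale. Among them, Pou2f2 at P1 had a plain ratio of 1.81 (1.15 to 3.05). Pou3f2 differed by 0.04, 0.54, and 3.20 in order of stage, the last on 49 UMIs in Reln cells and 0 in Tac1 cells.

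**Figure D3:**
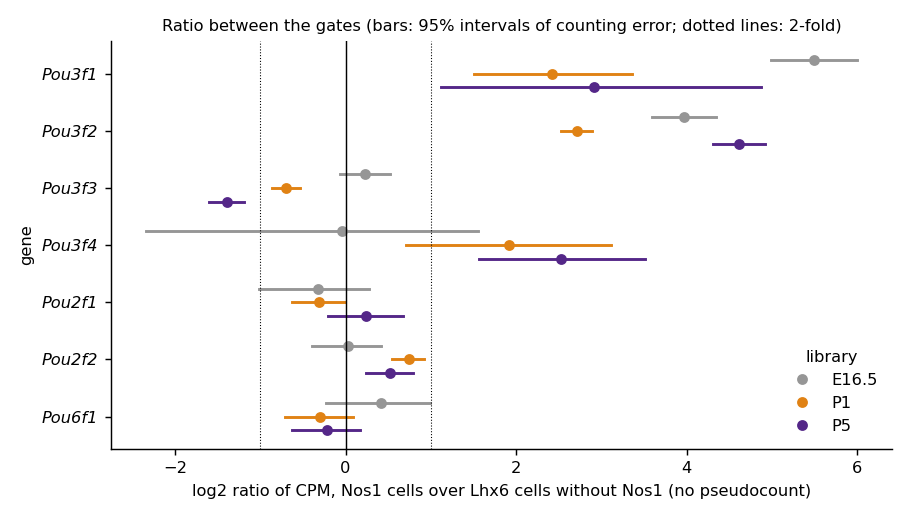
Plain log2 ratio of CPM, Nos1 cells over Lhx6 cells without Nos1, for the 7 POU genes in each library, with 95% intervals for counting error. Dotted lines mark 2-fold. Pou3f2 lies past 2-fold in each library, Pou3f3 moves from near 0 at E16.5 to past 2-fold lower at P5, and the intervals of Pou6f1 include 0 in each library.

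Pou3f1 had the highest ratio of the members at E16.5, and nearly all of it came from cells with excitatory markers. It stood at 131 CPM (104 to 164), 12.7 CPM (8.21 to 18.7), and 4.07 CPM (1.76 to 8.03) in Nos1 cells, and at 2.92 CPM (2.24 to 3.74), 2.37 CPM (1.43 to 3.70), and 0.540 CPM (0.175 to 1.26) in Lhx6 cells without Nos1. The plain ratio was 45.0 (31.8 to 63.8), 5.35 (2.83 to 10.3), and 7.55 (2.18 to 29.3). All 78 UMIs of the E16.5 Nos1 cells and all 25 of the P1 Nos1 cells came from the 14 and 17 cells with at least 2 excitatory markers, as did 7 of the 8 at P5. In the Nos1 cells without these markers, Pou3f1 was found in 0 of 53 cells at E16.5, which allows a share of up to 5.66%, in 0 of 417 at P1, which allows up to 0.719%, and in 1 of 544 at P5. Cells with at least 2 excitatory markers and no Lhx6 held 253, 274, and 117 CPM of Pou3f1 (39, 32, and 21 cells). The Pou3f1 difference between the groups was thus carried by cells with excitatory markers, and it does not describe Nos1 cells as a whole.

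Pou3f4 (Brn4), known from the inner ear and the striatum, was sparse. It had 3, 13, and 22 UMIs in Nos1 cells and 110, 14, and 18 in Lhx6 cells without Nos1, or 5.05, 6.60, and 11.2 CPM against 5.18, 1.75, and 1.94 CPM. The groups overlapped at E16.5 and were apart at P1 and P5, with Nos1 cells the higher group. The plain ratio was 0.975 (0.198 to 2.92), 3.78 (1.63 to 8.66), and 5.76 (2.95 to 11.4). No Nos1 cell held more than 1 UMI of Pou3f4. Pou3f2 and Pou3f4 were thus the higher and Pou3f3 the lower in Nos1 cells after birth, while the side of Pou3f1 rested on the cells with excitatory markers (-1.75 and -0.027 at P1 and P5 without them, on the log2(CPM + 1) scale).

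The octamer-binding factors differed less. Pou2f2 (Oct2), known from B cells, stood at 89.2, 168, and 71.8 CPM in Nos1 cells and at 87.7, 101, and 50.1 CPM in Lhx6 cells without Nos1. Its plain ratio at E16.5 was 1.02 (0.759 to 1.34), and it was higher in Nos1 cells at P1, 1.67 (1.46 to 1.90), and at P5, 1.43 (1.18 to 1.73). Pou2f1 (Oct1), expressed in most cell types, stood at 37.0, 52.3, and 29.0 CPM against 46.5, 64.8, and 24.5 CPM. Its ratios were 0.796 (0.497 to 1.21), 0.807 (0.647 to 0.999), and 1.18 (0.870 to 1.59), so that no difference beyond counting error was seen except at the edge of the interval at P1. Pou6f1, a factor of the brain whose targets are less well known, stood at 42.1, 32.5, and 32.6 CPM against 31.7, 40.0, and 37.9 CPM. The intervals of its ratios, 0.854 to 1.98, 0.612 to 1.07, and 0.648 to 1.13, all included 1.

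Levels also differed between the libraries. Among Lhx6 cells without Nos1, 10.3% of all genes were higher by over 2-fold at P1 than at E16.5 and 3.25% lower, and 8.86% were higher and 9.91% lower at P5 than at P1. The median of all genes moved by 0.16 and -0.07 on the log2(CPM + 1) scale in these cells. Pou3f2 was past 2-fold in both steps, by 2.34 from E16.5 to P1 and by -2.06 from P1 to P5, so that its level in these cells was highest at P1. Pou3f3 was 1.92-fold (1.82 to 2.03) higher at P1 than at E16.5 and level from P1 to P5 (1.00, 0.945 to 1.06). Pou2f1 and Pou2f2 stood at 0.378 (0.322 to 0.443) and 0.497 (0.443 to 0.558) of their P1 level at P5. Pou6f1 differed little from P1 to P5 (0.949, 0.813 to 1.11). Pou3f4 was lower by over 2-fold from E16.5 to P1 (-1.17), and Pou3f1 from P1 to P5 (-1.13, on 5 and 19 UMIs).

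Among Nos1 cells, 15.9% of all genes were higher by over 2-fold at P1 than at E16.5 and 6.04% lower, and 7.61% were higher and 12.8% lower at P5 than at P1. Pou3f2 was 2.29-fold (1.82 to 2.89) higher at P1 than at E16.5 and stood at 0.842 (0.751 to 0.944) of the P1 level at P5. Without the cells that held excitatory markers, the first step was 5.09-fold (3.48 to 7.72), from 68.3 to 348 CPM, and the second 0.811-fold (0.722 to 0.911). The Nos1 cells of E16.5 also held 16 cells of cluster 3, a cluster at 4.97 CPM of Pou3f2, and their part in this step was not tested. The LRP-like clusters described below stood at 158 CPM at E16.5 (cluster 12) and at 424 CPM at P1 (cluster 3). The decline of Pou3f2 from P1 to P5 was smaller in Nos1 cells than in Lhx6 cells without Nos1, 0.842-fold against 0.226-fold (0.181 to 0.280). This was not tested over animals. With cluster 7 of P1, described below, left out of the Lhx6 cells without Nos1, their level was 29.7 CPM at P1 and 11.6 CPM at P5, or 0.389-fold (0.306 to 0.492). Pou3f3 stood at 1.01 times (0.806 to 1.28) its E16.5 level at P1 and at 0.617 (0.516 to 0.736) of its P1 level at P5. Without the cells that held excitatory markers, it was 1.66-fold (1.18 to 2.38) higher at P1 than at E16.5, 158 against 95.2 CPM, and at 0.668 (0.556 to 0.802) of its P1 level at P5. The LRP-like clusters stood at 168 CPM of Pou3f3 at E16.5 (cluster 12) and at 142 CPM at P1 (cluster 3). Pou2f2 was past 2-fold lower at P5 than at P1, by -1.22. Pou3f1 was lower by over 2-fold in both steps, by -3.27 and -1.43, but Nos1 cells without excitatory markers held only 0, 0, and 1 UMI of it, so that these steps describe the cells with such markers.

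Clusters of each library, built without any POU gene or Pantr1, placed the members in kinds of neurons that the Nos1 gate does not separate. The libraries gave 12, 10, and 10 clusters in order of stage, each with at least 55 cells. The lists of LRP, Martinotti, and non-Martinotti markers used to name them come from the study, which chose them on these cells. Pou3f2 was highest at E16.5 in cluster 12, LRP-like and led by Pcp4, Dach1, Npy, and Nos1, at 158 CPM (125 to 197), and in cluster 11, led by Meis2, Nfix, and Neurod6, at 137 CPM (115 to 162). Cluster 8 of E16.5, with Sp9 and Zbtb20 among its leading genes, followed with 91.4 CPM (74.9 to 110), although only 2 of its 236 cells held Nos1. The intervals of clusters 12 and 11 overlapped, that of cluster 8 lay below both, and Pou3f2 was under 5 CPM in each of the remaining clusters.

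At P1, Pou3f2 was highest in cluster 7, led by Rmst, Cygb, and Zbtb20, at 519 CPM (458 to 585), and in LRP-like cluster 3, led by Nos1, Npy, and Pcp4, at 424 CPM (392 to 459). Only 22 of the 188 cells of cluster 7 held a Nos1 UMI, against 324 of 374 in cluster 3. Excitatory-like cluster 10 of P1 came next at 218 CPM (171 to 274), with Nos1 in 16 of its 55 cells. Cluster 9, led by Adarb2 and Meis2, stood at 100 CPM (61.3 to 155), and cluster 5 at 72.6 CPM (58.5 to 89.2). At P5, the highest were LRP-like cluster 10, led by Hhip, Syt6, and Pcp4, at 420 CPM (339 to 514), and LRP-like cluster 3, led by Nos1, Npy, and Ptn, at 327 CPM (299 to 358). Each of these pairs had intervals that overlapped. No cluster of the P5 library combined a level over 60 CPM with few Nos1 cells, and the highest after the LRP-like clusters was 50.5 CPM (23.1 to 95.8) in cluster 9.

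The Pou3f2 UMIs of Lhx6 cells without Nos1 came from few clusters. At E16.5, cluster 8 gave 47.0% of these UMIs from 6.39% of the cells, and cluster 12 gave 26.3%. At P1, cluster 7 gave 44.9% from 8.59% of the cells, cluster 5 gave 20.0%, and cluster 1 gave 15.1%. At P5, the UMIs were spread over clusters 4 (35.5%), 5 (24.3%), 3 (20.6%), and 10 (11.2%). With cluster 8 of E16.5 and cluster 7 of P1 left out of both groups, the Pou3f2 difference between the groups was 4.59 and 3.37.

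**Figure D4:**
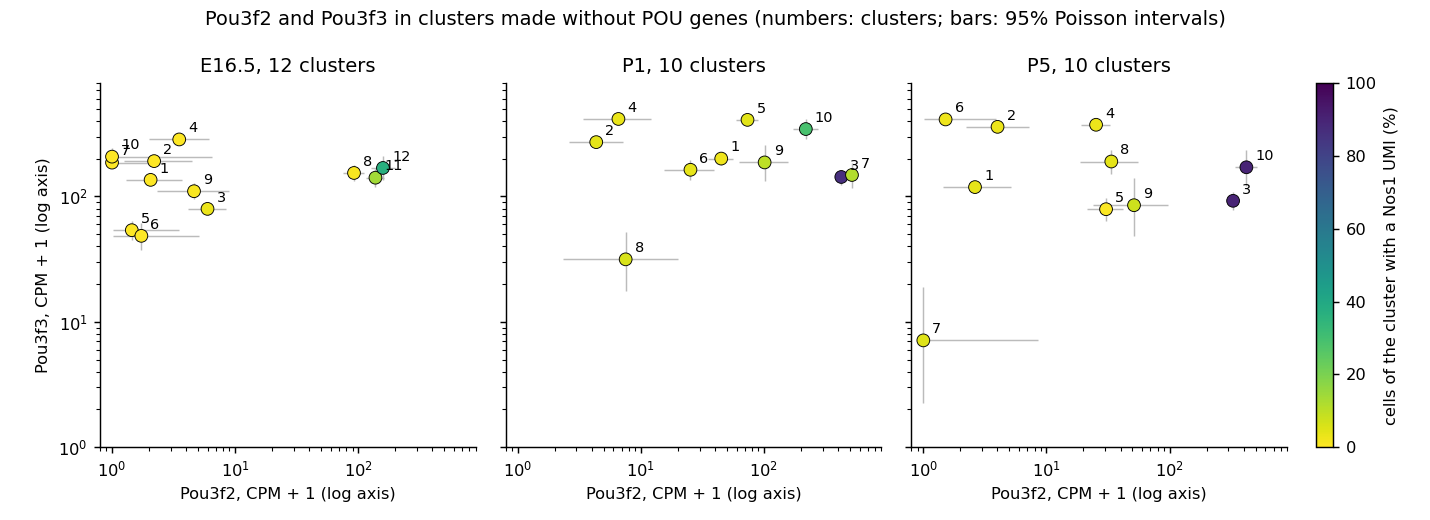
Pou3f2 against Pou3f3 in CPM + 1 on log axes for the clusters of each library, colored by the percentage of cells with a Nos1 UMI. Bars are exact 95% Poisson intervals. Clusters with most Nos1 cells lie at the right. Clusters 8 and 11 of E16.5 and clusters 7, 9, and 10 of P1 also lie toward the right, with Nos1 in a minority of their cells.

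Pou3f3 was spread over more clusters. Its highest levels were 284 CPM (264 to 304) in cluster 4 of E16.5, led by Mpped2, Zbtb20, and Igfbpl1, 414 CPM (381 to 449) in cluster 4 of P1, led by Nrp2 and Car10, and 410 CPM (382 to 440) in cluster 6 of P5, led by Nr2f2 and Hs6st2. Its lowest were 47.5 CPM (36.7 to 60.5) in cluster 6 of E16.5, led by Sorcs1, and 30.5 CPM (16.7 to 51.2) and 6.11 CPM (1.26 to 17.9) in the Tac1-led clusters of P1 and P5. The highest cluster stood 1.94, 2.15, and 2.85 times above the median cluster, against 85.0, 8.89, and 15.6 times for Pou3f2. Pou3f3 was thus broad with gaps, and Pou3f2 was concentrated in few clusters.

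The other members followed neither pattern closely. Pou3f1 was led by cluster 11 of E16.5 (160 CPM), excitatory-like cluster 10 of P1 (272 CPM), and cluster 8 of P5, led by Slc17a7 and Nrgn (46.6 CPM), and the second highest cluster was at most 20.1 CPM. Pou2f1 was highest in clusters 8 of E16.5 (67.5 CPM) and 7 of P1 (124 CPM), and Pou2f2 in the same clusters (139 and 189 CPM), each with an interval that overlapped that of the next cluster. Both clusters were also high in Pou3f2 and held few Nos1 cells. At P5, Pou2f1 was highest in cluster 9 (56.1 CPM, 26.9 to 103) and lowest in cluster 10 (8.94 CPM, 1.08 to 32.3), the cluster highest in Pou3f2, where Pou2f2 was highest (116 CPM, 75.9 to 170). Pou6f1 ranged only from 23.8 to 47.0 CPM, from 31.4 to 50.2 CPM, and from 25.7 to 51.1 CPM over the clusters of the 3 libraries.

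Over clusters, the genes with the pattern most like each member were found by Pearson's r of log2(CPM + 1), taking the lowest of the 3 libraries (12, 10, and 10 clusters, which share libraries and differ in depth) among 7707 genes. For Pou3f2 they were Plxnb2 (0.78), Nos1 (0.76), Col11a1 (0.76), Zfp827 (0.74), and Mllt3 (0.73), and for Pou3f3 they were Dpysl3 (0.75), Bcl11a (0.66), Cct2 (0.60), Raly (0.59), and Fam84a (0.59). For Pou3f1 they were Bhlhe22 (0.92), Neurod2 (0.90), and C1ql3 (0.87), which include factors of excitatory neurons. For Pou2f1 they were Ik (0.78), Neb (0.74), and Tcf12 (0.74), about as high as for Pou3f2. The other members gave lower values, Pou2f2 (Lrch2 0.70, Zdhhc20 0.68, and Sfrp1 0.66), and Pou6f1 (Trappc12 0.65, Dcaf5 0.48, and Rps6ka3 0.48). Pou3f4 did not reach 20 CPM in a cluster of every library and was not ranked. The neighbour Pantr1 followed Pou3f3 with r of 0.91, 0.92, and 0.88 at E16.5, P1, and P5, and it did not follow Pou3f2 (0.12, 0.05, and -0.01). Pou3f2 was like Pou3f4 (0.79, 0.50, and 0.78) and, after birth, Pou2f2 (0.38, 0.93, and 0.73). The values for Pou3f4 rest on few UMIs, at most 19, 12, and 15 in any cluster of E16.5, P1, and P5.

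Pou3f2 and Pou3f3 were not exclusive in single cells. Both were found in 73, 200, and 121 cells in order of stage, Pou3f2 alone in 76, 322, and 283, and Pou3f3 alone in 1713, 947, and 1182. From the share of each gene within 5 bins of depth, 71.7, 244, and 143 cells with both would be seen without a relation, so that the observed number was 1.02, 0.82, and 0.85 times the expected. Among cells with Pou3f2, 49.0% (40.7 to 57.3), 38.3% (34.1 to 42.6), and 30.0% (25.5 to 34.7) also held Pou3f3. Among cells without Pou3f2, the share with Pou3f3 was 45.0% (43.5 to 46.6), 47.9% (45.6 to 50.1), and 45.9% (43.9 to 47.8). The intervals of these shares were apart at P1 and P5, with the lower share in cells with Pou3f2, and overlapped at E16.5. Median depths were 6322, 3471.5, and 3001.5 UMIs with Pou3f2 and 5554, 3213, and 4135.5 UMIs without.

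Within each group of cells, the ratios of P1 and P5 were nearer to 1. Among Nos1 cells, both genes were found in 17, 88, and 81 cells, which is 1.44, 0.91, and 1.09 times the number expected. Among Lhx6 cells without Nos1, they were found together in 46, 91, and 32 cells, or 0.92, 0.90, and 1.00 times the number expected. The level of Pou3f3 at P5 was 128 CPM in all kept cells with Pou3f2 and 254 CPM in those without. Within the Nos1 cells of P5, it was 103 CPM with Pou3f2 and 107 CPM without, and within the Lhx6 cells without Nos1, it was 199 and 278 CPM. The plain log2 ratio of Pou3f3 in cells with Pou3f2 over those without lay between -0.46 and 0.36 in the Nos1 cells of P5, and below 0 in the Lhx6 cells without Nos1 of P5 (-0.88 to -0.11). At P1, it was 155 against 190 CPM in Nos1 cells (-0.61 to 0.03) and 221 against 282 CPM in Lhx6 cells without Nos1 (-0.58 to -0.13). At E16.5, Nos1 cells with Pou3f2 were higher in Pou3f3, 372 against 71.9 CPM (1.73 to 3.05), and the Lhx6 cells without Nos1 stood at 135 and 144 CPM (-0.41 to 0.22). Without the cells that held excitatory markers, Nos1 cells with and without Pou3f2 stood at 160 and 77.5 CPM at E16.5 (13 and 40 cells, -0.01 to 2.05), at 120 and 211 CPM at P1 (-1.17 to -0.48), and at 104 and 107 CPM at P5. The relation between the genes within a group thus differed between the libraries, and at E16.5 and P1 it moved with the cells that held excitatory markers. The Nos1 cells of P1 were also of several clusters. LRP-like cluster 3, with 324 of them, stood at 142 CPM of Pou3f3. Clusters 2, 4, and 5, with 16, 10, and 12, stood at 270, 414, and 407 CPM, and cluster 8, with 6, at 30.5 CPM. The part of these clusters in the P1 values was not tested.

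**Figure D5:**
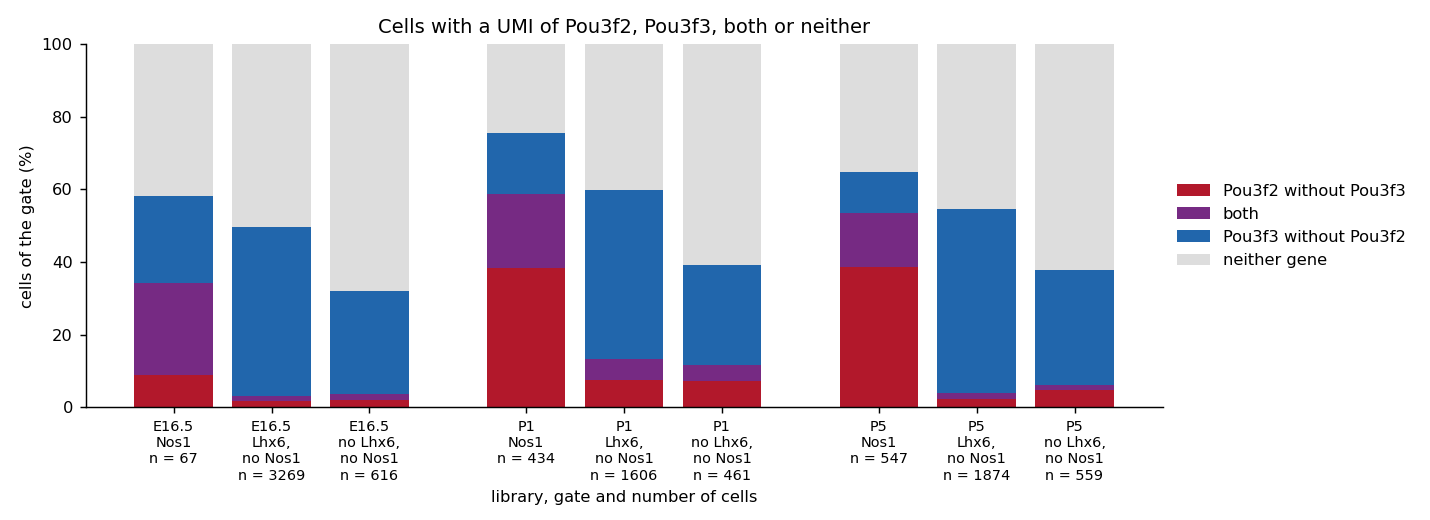
Percentage of cells with a UMI of Pou3f2 without Pou3f3 (red), both (purple), Pou3f3 without Pou3f2 (blue), and neither gene (grey), for Nos1 cells, Lhx6 cells without Nos1, and cells without Lhx6 and Nos1 in each library. Cells with both are present in each group, with 17, 88, and 81 among Nos1 cells at E16.5, P1, and P5.

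Some other pairs of members shared more cells than their shares give over all kept cells, and less so within Nos1 cells. Pou3f1 and Pou3f2 were found together in 17, 17, and 5 cells, or 6.83, 2.39, and 3.06 times the expected number, and within Nos1 cells 2.26, 1.33, and 1.71 times. Pou3f2 and Pou3f4 shared 13, 14, and 17 cells, or 2.82, 1.78, and 2.81 times the expected number, and within Nos1 cells 0.94, 1.20, and 1.24 times. Pou3f2 and Pou2f2 shared cells 1.40, 1.24, and 1.36 times the expected number, and within Nos1 cells 1.16, 1.13, and 1.15 times. The ratios within Nos1 cells rested on 8, 7, and 3 shared cells for Pou3f1 and Pou3f2, and on 1, 10, and 15 for Pou3f2 and Pou3f4. Within Lhx6 cells without Nos1, Pou3f2 and Pou2f2 gave 1.55, 1.11, and 1.17 times. Pou3f2 and Pou3f4 gave 3.48, 1.05, and 3.29 times there, on 11, 2, and 2 shared cells. Pou3f1 and Pou3f2 gave 3.94, 3.27, and 0 times, on 4, 3, and 0 shared cells. The excess was thus not lower throughout the Lhx6 cells without Nos1. Of the kept cells, 22.8%, 21.9%, and 31.6% held a UMI of none of the 7 members, and no cell held all 7.

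Among the known partners, neighbours, and targets of POU factors, 20 genes were looked at in the same comparison. Of those with enough UMIs, 4 of 18 were higher and 3 lower in Nos1 cells by over 2-fold at E16.5, 5 of 17 higher and 1 lower at P1, and 7 of 17 higher and 3 lower at P5. Over all genes, as given above, 6.45%, 4.33%, and 4.22% were higher and 8.69%, 3.72%, and 7.08% lower. The 20 genes were chosen with results of these data known, so that this is no test of the list. Sox2, an HMG-box factor that often binds beside class III POU proteins, stood at 266, 461, and 377 CPM in Nos1 cells and at 268, 204, and 121 CPM in Lhx6 cells without Nos1. It differed little at E16.5 and was higher in Nos1 cells after birth, by -0.01, 1.17, and 1.63 on the log2(CPM + 1) scale. At E16.5, however, its highest cluster was LRP-like cluster 12, at 597 CPM, with 31 of the 67 Nos1 cells. Clusters 11 and 3, with 14 and 16 of the Nos1 cells, stood at 144 and 146 CPM of Sox2. Sox1, of the same SOX group, differed by 0.99, 1.22, and 1.79. The zinc finger factors Zeb1 (2.03, 2.88, and 2.78) and Tshz2 (0.87, 2.88, and 4.39) and the factor Dach1 (3.50, 4.78, and 3.70) were higher in Nos1 cells as well. The study had singled out Sox2, Sox1, Zeb1, Tshz2, Dach1, and Pou3f2 on these same cells, so that their shared direction is not independent evidence. Pantr1 was lower in Nos1 cells at P1 and P5, as Pou3f3 was, by 0.20, -0.89, and -1.54. Rmst, a long noncoding RNA that binds Sox2, had 0 UMIs in the 67 Nos1 cells at E16.5 and stood at 13.2 and 24.4 CPM in Nos1 cells and at 12.9 and 5.29 CPM in Lhx6 cells without Nos1 at P1 and P5. Crh, the gene of corticotropin-releasing hormone and a target of POU factors in the hypothalamus, had no UMI in Nos1 cells at P1 and P5 and 24 and 70 UMIs in Lhx6 cells without Nos1. Dab1, an adaptor of the reelin receptors, differed by 3.67, 0.45, and -2.42 and so changed side between the libraries. Its E16.5 value rests on 55 UMIs in Nos1 cells. The 14 of 67 Nos1 cells with excitatory markers were not left out for any of the 20 genes, so their part was not tested.

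Among the other POU genes of the mouse, Pou5f1 and Pou5f2 differed by -0.06, -0.09, and -0.24 and by -0.93, -0.45, and -0.55 on the log2(CPM + 1) scale, on at most 9 UMIs in Nos1 cells. Neither was past 2-fold in any library.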

How the data were processed

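Single-cell RNA was sequenced from GFP+ cells sorted from the neocortex, in 1 library of pooled animals per stage. The authors ran Cell Ranger, version 3.0.2 for P1 and version 3.1.0 for the other libraries, on the GRCm38 build, and the deposited values are raw UMI counts per gene and cell that were not normalized. The totals were 25638779, 15654107, and 13429055 UMIs at E16.5, P1, and P5.

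Counts were summed over the kept cells of a group and scaled to CPM in Python 3.11.15 (numpy 2.4.6 and scipy 1.17.1). Differences used log2(CPM + 1), and background percentages used genes with at least 10 UMIs. Intervals were exact (Poisson, Clopper-Pearson, and conditional for ratios) at 95%. Clusters came from scanpy 1.11.5 (Leiden method, resolution 1, 2000 variable genes, 30 principal components), per library. No doublet caller was run, and leaving out the 5% of cells with most UMIs was an alternative. The scripts were tested on simulated data. The members, the lists, and the rule for named genes (all members, the other POU genes, 20 partners, and the genes most like each member over clusters) were chosen with earlier results of these data known. Some of these values are not reported here. Alternatives that left out excitatory-marker cells, required Lhx6 in Nos1 cells, or left out a cluster (also between libraries) were added after the values were seen.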

Additional observations from a re-analysis of the deposited data

Results flagged for a closer look

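Pou3f3, Pou3f4, Pou2f1, and Pou6f1 had differences between Nos1 cells and Lhx6 cells without Nos1 that pointed in opposite directions in different libraries, and the change between libraries was not tested, since each stage has 1 library. On the log2(CPM + 1) scale, Pou3f3 stood at 0.23, -0.69, and -1.39 in order of stage. At E16.5, its sign turned to -0.59 without the Nos1 cells that held excitatory markers. LRP-like cluster 12 of E16.5, however, stood at 168 CPM of Pou3f3, against 143 CPM in the Lhx6 cells without Nos1. Pou3f4 stood at -0.031, 1.47, and 2.05, on 3, 13, and 22 UMIs in Nos1 cells. Pou2f1 stood at -0.32, -0.30, and 0.24, and Pou6f1 at 0.40, -0.29, and -0.21. For Pou2f1 and Pou6f1, the intervals of the plain ratio reached 1 in each library except Pou2f1 at P1, where the upper bound was 0.999.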

How the results depend on the processing

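No paired analysis was possible because the stages have 1 library each and share no replicate, and no library could be left out for the same reason. The Pou3f2 difference stayed past 2-fold on the higher side under all 14 alternatives at E16.5, all 14 at P1, and all 13 at P5, and the Pou3f3 difference at P5 stayed past 2-fold on the lower side under all 13. Without the Nos1 cells that held excitatory markers, Pou3f2 at E16.5 was 2.75, Pou3f3 at E16.5 was -0.59, and Pou3f1 was -1.97, -1.75, and -0.027 at E16.5, P1, and P5, with 0, 0, and 1 UMI left in Nos1 cells. The step of Pou3f1 from P1 to P5 in Nos1 cells was then 0.60 in place of -1.43, on 0 and 1 UMI. With Nos1 cells limited to those with Lhx6, Pou3f2 and Pou3f3 at E16.5 were 3.26 and -0.31. With at least 2 Nos1 UMIs, Pou3f3 was -0.19 at E16.5 and -1.16 at P1, Pou3f2 was 3.02 at P1, and Pou3f1 was -0.048 at P1. Against all cells without Nos1, Pou3f2 was 3.56, 2.52, and 4.19. With cluster 8 of E16.5 and cluster 7 of P1 left out, it was 4.59 at E16.5 and 3.37 at P1. With over 1000 genes and under 5% mitochondrial UMIs, Pou3f2 was 3.55 at E16.5 and 1.70 at P1, Pou3f3 was -0.87 at P1, and Pou3f1 was -1.75 at P1. With a pseudocount of 10 CPM, Pou3f2 was 3.02, 2.49, and 3.76. With cells thinned to 2000 UMIs, it was 3.51 at E16.5 and 2.42 at P1, and with the mean of per-cell CPM 2.33 at P1 and 3.96 at P5. Cells with both Pou3f2 and Pou3f3 over the number expected were 1.29 at E16.5 and 0.57 at P5 when thinned, and 0.68 at P5 without bins of depth. Genes past 2-fold numbered 2055, 1049, and 1516, or 1284, 527, and 891 with at least 50 UMIs and 334, 236, and 417 with a pseudocount of 10 CPM. The cause of these shifts was not tested beyond the cells and UMIs each setting removes. Depth limits the sparse members most, since Pou3f4 at E16.5 had 3 UMIs in Nos1 cells and Pou3f1 at P5 had 5 in Lhx6 cells without Nos1.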

Other observations

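Cells with neither a Lhx6 nor a Nos1 UMI were in neither of the 2 groups compared above. They were part of all kept cells, of the clusters, and of the alternative with all cells without Nos1. There were 616, 461, and 559 of them at E16.5, P1, and P5, with a median of 3947.5, 1559, and 2469 UMIs. They held Pou3f2 at 28.1, 109, and 30.6 CPM and Pou3f3 at 119, 257, and 200 CPM. Pou3f1 stood at 19.2, 63.9, and 8.41 CPM, and 26, 21, and 19 of these cells held at least 2 excitatory markers. Pou2f2 stood at 92.6, 152, and 69.7 CPM, Pou2f1 at 59.5, 83.2, and 31.8 CPM, and Pou6f1 at 34.6, 38.6, and 33.6 CPM.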
